A study of Mus musculus with 30 samples.

Results

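The nuclear genes that encode subunits of the mitochondrial respiratory chain were examined in mouse colon. Members were the genes whose names begin with Nduf followed by a, b, c, s or v and a number, the 4 genes Sdha to Sdhd, and the genes whose names begin with Uqcr, with Cox4 to Cox8 followed by a, b or c, or with Atp5, pseudogene names left out. This gave 83 gene IDs under 82 names, out of 46078 genes in the count table: 37 of complex I, 4 of complex II, 9 of complex III, 16 of complex IV and 17 of complex V. The additional ID was a second copy of Uqcrc1 on an assembly patch. The rule used names alone and no measured value. It leaves out the complex IV gene Cox4i1, and it takes in Atp5s and Atp5sl, which carry the Atp5 name but are not counted among the subunits of the synthase.

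RNA-seq was done on colon tissue, distal colon by the study's methods and not separated into layers in the labels, of C57BL/6J mice in 5 groups of 6 biological replicates, 30 libraries in all. Females and males were fed a control diet (CD) or a high-fat diet (HFD) for 13 weeks and given vehicle, and another group, males on HFD, was given the estrogen estradiol (E2) in its place, at 0.5 mg/kg body weight in 9 intraperitoneal injections during the last 3 weeks. All mice had the same genetic background and carried no engineered allele in the labels, which give no age. The design asks how the sexes differ on each diet, how HFD acts in each sex, and how E2 acts in males on HFD. Such tissue holds epithelium, muscle, connective tissue, nerve and immune cells, so fewer cells of a type and less RNA per cell cannot be told apart in any value below.

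The respiratory chain sits in the inner mitochondrial membrane. Complex I takes electrons from NADH and complex II from succinate, both pass them to ubiquinone, complex III hands them on to cytochrome c, and complex IV reduces oxygen to water. Complexes I, III and IV pump protons, and complex V, the ATP synthase, makes ATP as the protons flow back. Complex II is encoded wholly in the nucleus, whereas the other complexes combine the nuclear subunits described here with subunits made inside the mitochondrion. Colonocytes are known to draw much of their energy from the oxidation of butyrate through this chain. Several complex IV subunits exist as paired genes, with a form found in most tissues and a form typical of heart and skeletal muscle.

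Library totals ranged from 8667177 to 17243712 counts, of which 26.1% to 37.99% lay on mitochondrially encoded genes and 0.48% to 0.70% on the members. Epithelial genes were high in every library, with Epcam at 549 ± 47.4 TPM (lowest library 427 TPM) and Krt8 at 1177 ± 202 TPM (mean ± SD, n = 30). The brown fat gene Ucp1 was listed at 0 TPM in all, and none of these genes tests the colon label itself. Genes of stratified squamous epithelium were high in 6 libraries, HFD females 1, 3, 4 and 5 and HFD males 2 and 4, with a median summed level of 1201 CPM in HFD females and of 7.85 to 9.43 CPM in the other groups. A further split of the libraries touches the members strongly and is given with their levels.

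The members were abundant genes. Expressed as TPM, which is scaled to transcript length and can be compared between genes, 78 of the 83 had a mean of at least 1 TPM and 23 a mean of at least 100 TPM. Their median was 67.2 TPM, and 73 of them lay above 8.52 TPM, the median of the 15452 genes with a mean of at least 1 TPM. At the other end, Cox7b2, Cox8c and the patch copy of Uqcrc1 had no count in any library, and Cox6a2 and Cox6b2 stayed below a mean of 1 TPM.

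Summed over its genes, complex V had the highest level, 2474 ± 439 TPM (mean ± SD, n = 30). Within it the catalytic subunits led, Atp5b (beta) at 510 ± 108 TPM and Atp5a1 (alpha) at 465 ± 95.1 TPM, while Atp5s was lowest at 4.35 ± 1.40 TPM. The 37 complex I genes together reached 1934 ± 243 TPM, with a median gene at 45.5 TPM, the accessory subunit Ndufb9 highest at 178 ± 24.6 TPM and Ndufa4l2 lowest at 1.15 ± 2.05 TPM. Of the complex I subunits that carry the electrons, Ndufs1 stood at 67.8 ± 15.1 TPM and Ndufv1, which binds NADH, at 47.5 ± 12.2 TPM.

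Complex IV summed to 1665 ± 180 TPM, led by Cox6b1 at 314 ± 35.7 TPM, and complex III to 961 ± 101 TPM, from Uqcrq at 7.55 ± 3.79 TPM to Uqcrb at 250 ± 54.6 TPM. The core proteins of complex III, Uqcrc2 and Uqcrc1, lay at 148 ± 27.4 and 96.9 ± 14.1 TPM, and the Rieske iron-sulfur protein Uqcrfs1 at 62.8 ± 22.5 TPM. Complex II, with its 4 genes, summed to 323 ± 68.3 TPM. Its flavoprotein Sdha (123 ± 14.0 TPM) and the membrane anchor Sdhd (98.4 ± 35.8 TPM) stood above the iron-sulfur protein Sdhb (71.9 ± 11.8 TPM) and the other anchor, Sdhc (29.8 ± 14.9 TPM). Across the 30 libraries Sdhd ranged from 61.1 to 166 TPM and Sdha from 99.6 to 157 TPM, so these neighbours in the order overlapped.

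**Figure D1:**
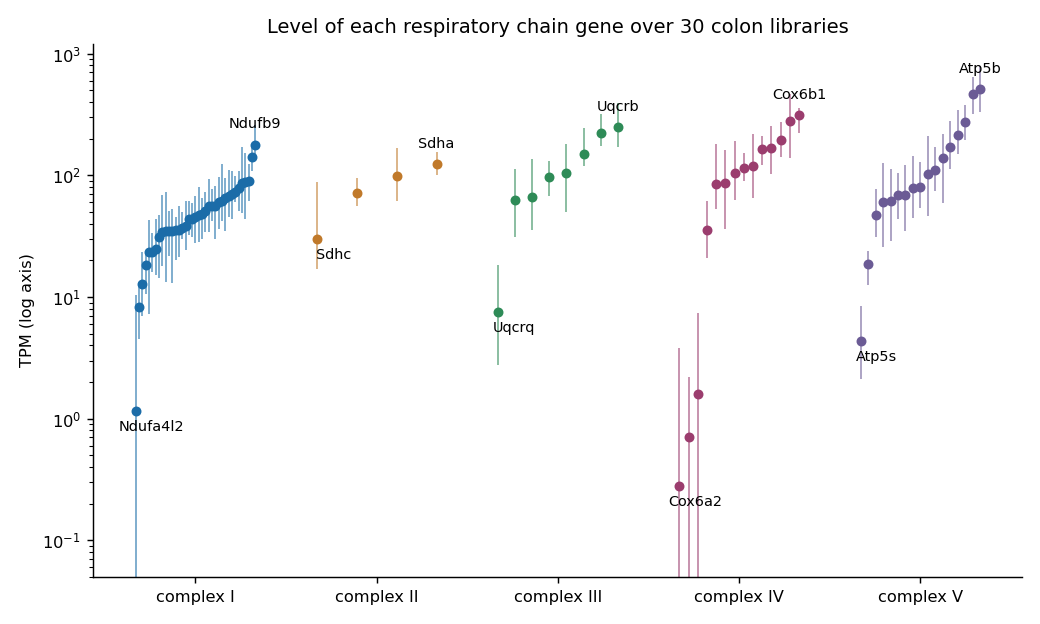
TPM of each detected respiratory chain gene on a log axis, by complex; each point is the mean of 30 libraries, each line runs from the lowest to the highest library, and lines that reach the bottom edge hold a library at or near 0. Complex V holds the highest gene, Atp5b at 510 TPM, and complex IV the lowest detected, Cox6a2 at 0.28 TPM.

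For complex IV the colon used the forms found in most tissues. Cox6a1 made up 99.8% of the Cox6a TPM, Cox6b1 99.8% of the Cox6b TPM, Cox8a 99.2% of the Cox8 TPM and Cox7b all of the Cox7b TPM. Their counterparts in muscle, testis or other single tissues, Cox6a2, Cox6b2 and Cox8b, had at most 21, 11 and 19 counts in a library, and Cox7b2 and Cox8c had 0. The Cox7a family was mixed: Cox7a2l took 52.6 ± 7.76% of the family's TPM, Cox7a2 36.4 ± 7.42% and the muscle form Cox7a1 11.04 ± 2.31% (n = 30), and smooth and some skeletal muscle genes were present in these colon libraries. Ndufa4, first named as a complex I gene and later placed in complex IV, held 98.6 ± 2.47% of its pair, but its hypoxia-linked paralog Ndufa4l2 reached 13.2% in 1 library. The ring of complex V that turns with the proton flow is built from identical mature peptides made by 3 genes, of which Atp5g3 gave 45.5 ± 6.60%, Atp5g1 32.4 ± 5.31% and Atp5g2 22.1 ± 2.52% of the TPM.

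The largest differences between libraries ran with the number that the sample description gives each library, from 101 to 130. What this number stands for is not given in the labels, and the ranges used below were chosen after the members' levels were seen. Over the 76 members with enough counts, the first principal component of log2 CPM (counts scaled to the library total and by TMM) held 52.4% of the variance. Each member was centred on its mean over all 30 libraries, so differences between groups are part of this variance. The 11 libraries numbered 101 to 108 and 128 to 130 had scores of 0.175 to 0.426 on it, and the 19 libraries numbered 109 to 127 had scores of -0.266 to -0.0343. Since the split was found on these genes, the counts that follow are a description.

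In 5 members every library numbered 109 to 127 lay above every other library, and in 6 members every one lay below, 6.58% and 7.89% of the 76, where 0.685% and 0.959% of 16060 genes did so. Higher there were the complex I accessory genes Ndufs5, Ndufs6 and Ndufa8 and the complex IV genes Cox6c and Cox7a2l. Ndufs5 ranged from 4.0 to 7.13 CPM in the 11 libraries and from 8.31 to 16.9 CPM in the 19, a mean difference within groups of 1.23 on the log2 scale. Lower there were Atp5g3 (a c-ring gene), Cox5a, Ndufa4, Sdhd, Uqcrfs1 and Ndufs4. Atp5g3 ranged from 71.1 to 118 CPM in the 11 libraries and from 38.3 to 62.8 CPM in the 19, and the differences of the 6 ran from -1.03 to -0.65 on the log2 scale. Both directions occurred within complexes I and IV, whereas complexes II, III and V held 1 such member each, all lower.

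**Figure D2:**
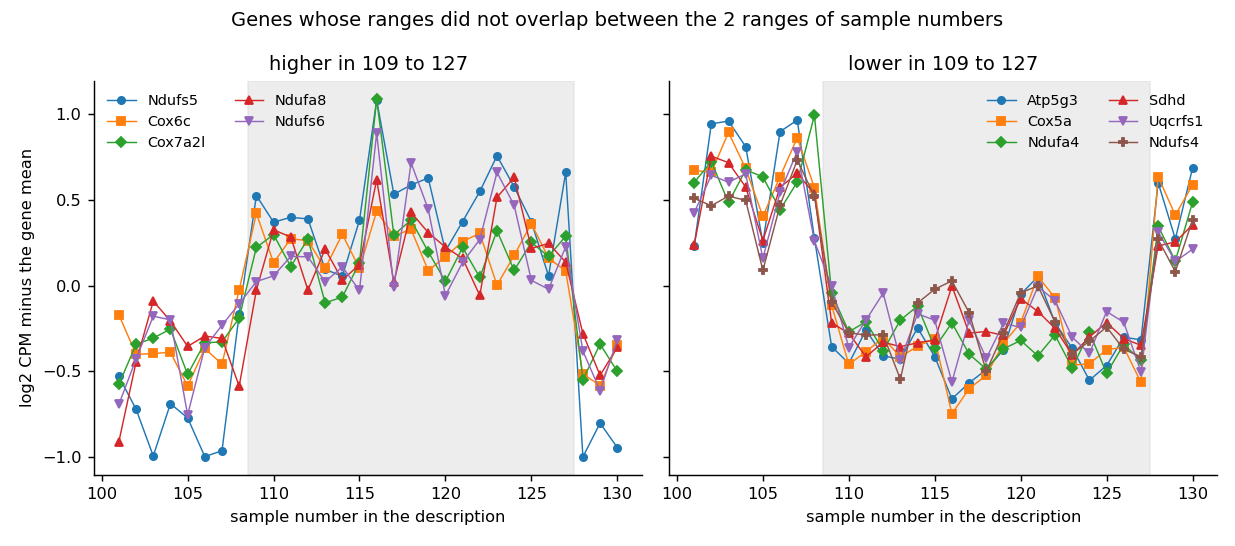
Log2 CPM of 11 members, each minus its mean over the 30 libraries, against the sample number in the description; the grey band marks numbers 109 to 127, the left panel holds the 5 members that were higher there and the right panel the 6 that were lower. All 11 step at 109 and step back at 128, with Ndufs5 and Atp5g3 at differences of 1.23 and -1.03 on the log2 scale.

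The numbers were spread over the groups but unevenly: 3 of 6 CD females, 2 of 6 CD males, 2 of 6 HFD females, 3 of 6 HFD males and 1 of 6 E2-treated males belonged to the 11. Each comparison below is therefore also given with the number range as a term in the fit and within each range. For these fits, and for those with a covariate or a library left out, the share of all genes called is not given. Their counts of members therefore do not show whether the members stood out from other genes. The second component, 19.6% of the variance, was led by 1 library, HFD male 1, at -0.515, with the next at -0.204. Across 73 members the loading on the second component had a Spearman coefficient of 0.645 with the GC content of the transcript, and that on the first of -0.387. The members' transcripts were short, with a median of 809 bases, where 13416 tested genes had a median of 2866.5 bases. The smooth muscle score, a mean log2 CPM over 12 genes, also ran with the number range. In the 11 and the 19 libraries it was 8.48 to 8.81 and 8.97 to 9.19 for CD females. CD males had 8.95 to 9.19 and 9.60 to 9.77, and HFD males 8.77 to 9.00 and 9.35 to 9.71. E2-treated males had 9.05 (1 library) and 9.20 to 9.92. HFD females overlapped, at 8.63 to 9.10 and 8.82 to 9.52. Fits with this score and with the number range are thus not separate checks. What part smooth muscle content, transcript length, GC content, library preparation or sequencing run had in these differences was not tested.

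The start regions of the members were read for short motifs of factors known to control this gene class, since so many members varied together. RefSeq promoters (build GRCm38.p6, 250 bases before to 50 after the start) matched 66 members by gene. The palindrome-like core of NRF1, GCATGCGC, was in 15.2% of the members' promoters and 3.05% of 27025 promoters, counting both strands, whose matches can overlap because the site is nearly its own reverse complement. The GABP core CCGGAAG was in 24.2% of members and 9.93% of all, the estrogen-related receptor core AAGGTCA in 12.1% and 5.38%, and the YY1 core GATGGCGG in 9.09% and 1.97%. No match was found for Atp5s, Cox5b, Cox7a2l, Ndufv2 or Ndufa4, DEGs in the comparisons below, and some may lack a promoter among the 66. The lines below show members picked from those with a match. They are Ndufb4, Atp5g3, Ndufs5 and Sdhd, named in the results, with Sdhb and Ndufa6 as clear NRF1 matches. Each is written 5′ to 3′ on the strand of the gene, with the motif or its reverse complement in capitals.
Ndufb4, chr16:37654405-37654434, minus strand, AAGGTCA: tcctgagcctgAAGGTCAgactcgagaggg
Atp5g3, chr2:73911360-73911389, minus strand, AAGGTCA reversed: ttgttacaaagTGACCTTgagcgtcttccc
Ndufs5, chr4:123718396-123718425, minus strand, AAGGTCA reversed: tttctcgagtgTGACCTTgctcaagtagca
Sdhd, chr9:50603877-50603906, minus strand, CCGGAAG reversed: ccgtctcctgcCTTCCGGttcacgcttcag
Sdhb, chr4:140961206-140961235, plus strand, GCATGCGC: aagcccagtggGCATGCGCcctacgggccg
Ndufa6, chr15:82354356-82354385, minus strand, GCATGCGC: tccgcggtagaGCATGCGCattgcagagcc
The same AAGGTCA motif stood before Ndufs5 and before Atp5g3, which differed in opposite directions with the sample number. Whether the motif had a part in either difference was not tested. A match describes these letters and is not a site shown to be bound. Levels were read for 3 of these factors, Nrf1 at 14.0 ± 2.26 TPM, Gabpa at 22.4 ± 3.06 TPM and Esrra at 19.4 ± 5.41 TPM (n = 30).

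Between the sexes on CD, 68 of 76 members tested had a positive log2 fold change (female over male), but few passed a test singly. A gene counted as a DEG when its unadjusted p was under 0.05 and its log2 fold change beyond 0.4 in edgeR's quasi-likelihood test, and Benjamini-Hochberg adjusted p-values over all genes are given beside it. The median of the 76 was 0.16 where that of 14922 genes was 0.011. The medians of complexes I to V were 0.14, 0.15, 0.20, 0.22 and 0.13, and the members of complex I ran from -0.18 to 0.34. By the DEG threshold 1 member was higher (2.94% of all genes) and 0 were lower (6.21%), and 0 had an adjusted p under 0.05 (2.92%) with edgeR or DESeq2. At an unadjusted p under 0.05 alone, 9 were higher (6.18% of all genes) and 0 lower.

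The single DEG was Atp5s (ENSMUSG00000054894, chr12:69724962-69744658, GRCm38), the coupling factor B gene that lies outside the synthase subunits proper. It had 4.22 CPM in the lowest, 6.10 in the median and 7.44 in the highest CD female, against 2.83, 3.81 and 5.80 CPM in CD males. Of the females 4 lay above every male and all 6 above the male median, so the groups overlapped at their edges. Its log2 fold change was 0.47 (SE 0.201, adjusted p = 0.268). The call was lost when any of 8 of the 12 libraries was left out (CD females 1, 2, 3 or 6, CD males 2, 3, 4 or 5), with fold changes of 0.39 to 0.59 over the 12 fits, and with the smooth muscle score as a covariate the value was -0.022.

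Among the members with an unadjusted p under 0.05 the lowest p-values belonged to small accessory subunits. Cox5b (ENSMUSG00000061518, chr1:36691484-36693681), a zinc-binding subunit of complex IV, ran from 43.6 through 52.3 to 64.7 CPM in CD females and from 40.6 through 42.5 to 46.8 CPM in CD males. All CD females except the lowest lay above every CD male, and the log2 fold change was 0.29 (SE 0.0918, adjusted p = 0.110). Cox8a, a small subunit of complex IV, gave 0.33 (SE 0.110, adjusted p = 0.133) with 63.3, 91.8 and 97.0 CPM in females and 57.5, 68.3 and 80.7 CPM in males. Here too 5 of 6 females exceeded every male, while CD female 3 lay among the males. The others were Ndufa3 (0.30), Ndufa12 (0.24), Ndufs8 (0.24), Ndufb11 (0.31), Uqcrh (0.22) and Atp5j2 (0.34), and the exons of Ndufa3 and Ndufb11 overlap Tfpt and Rbm10 on the opposite strand.

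Fold changes smaller than their standard errors were found among the catalytic and core subunits, including Sdha at 0.024 (SE 0.0672), Uqcrc1 at -0.029 (SE 0.0759), Atp5a1 at 0.032 (SE 0.0993) and Atp5b at 0.043 (SE 0.109) on the log2 scale. Larger values that did not reach an unadjusted p under 0.05 were those of Ndufs1 at 0.16, Ndufv1 at 0.15, Sdhb at 0.18, Uqcrc2 at 0.14, Uqcrfs1 at 0.19 and Cox5a at 0.19, whereas the core gene Ndufs8, listed above, was at 0.24. The 3 members on the X chromosome, Ndufa1 (0.33), Ndufb11 (0.31) and Cox7b (0.21), were all positive, of which only Ndufb11 had an unadjusted p under 0.05.

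With the number range as a term, Atp5s stayed the single DEG (0.41), 13 members had p under 0.05 and the median was 0.12. Within the 19 libraries numbered 109 to 127 the DEGs were Atp5s (0.58), Ndufa1 (0.50), Ndufc2 (0.45) and Atp5sl (0.43, adjusted p = 0.041), and within the 11 there were 0, with medians of 0.09 and 0.10. Smooth muscle genes differed in the same comparison: all 12 of the list were lower in CD females, 7 with an adjusted p under 0.05, their median was -0.64, and their summed level was 6995 to 10917 CPM in CD females and 9274 to 16466 CPM in CD males. The part of tissue make-up in the members' difference was not tested by the design, and with the smooth muscle score as a covariate the median of the members was -0.08, with 25 members past the DEG threshold (7 adjusted). Other marker lists moved as well: all 7 fibroblast genes were lower in CD females (median -0.55, 2 adjusted), with a summed level of 1046 to 1488 CPM against 1467 to 2209 CPM in CD males. All 5 pericyte genes tested were lower (median -0.37, 2 adjusted), at 157 to 194 against 199 to 247 CPM over the list, and all 5 skeletal muscle genes tested (median -1.04, 1 adjusted), at 15.2 to 29.5 against 17.4 to 205 CPM. All 8 B cell genes were higher (median 1.34, 4 DEGs, 0 adjusted), at 27.7 to 128 against 2.50 to 85.7 CPM.

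**Figure D3:**
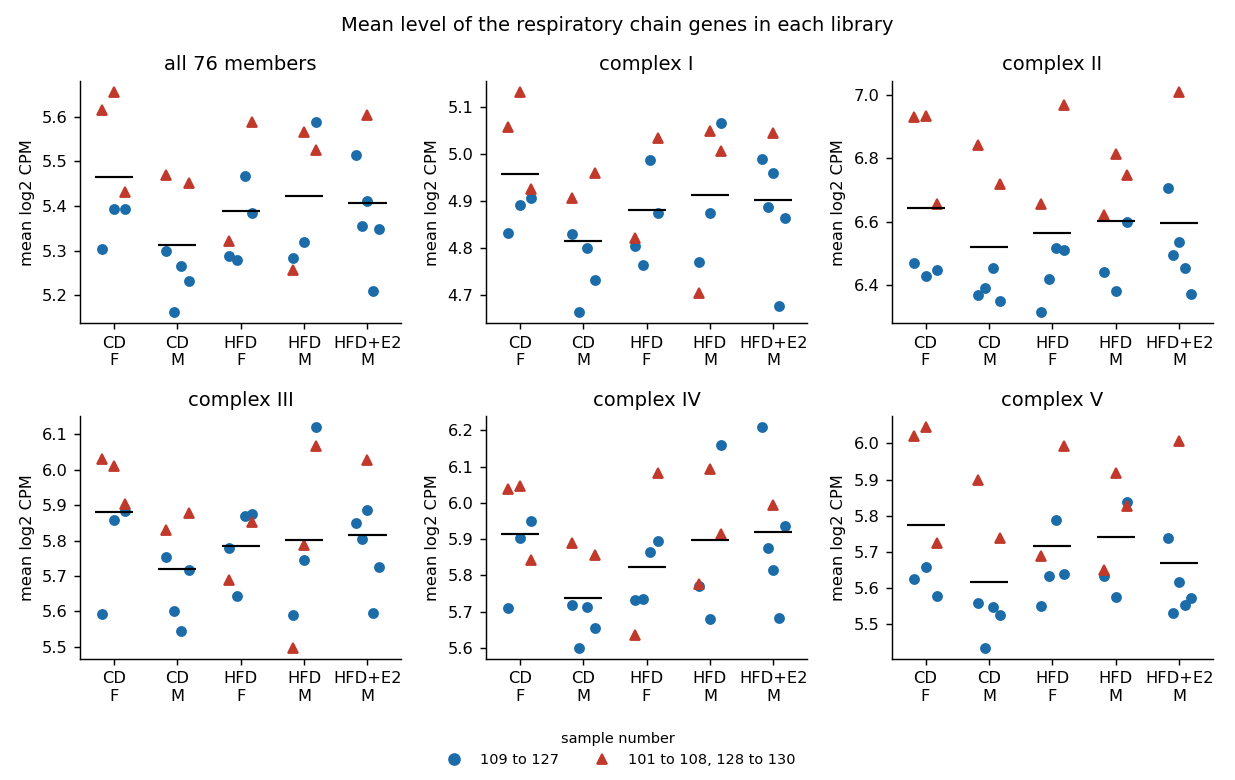
Mean log2 CPM over the 76 members and over the members of each complex, a point per library and a bar at the group mean (n = 6); triangles are libraries numbered 101 to 108 and 128 to 130. CD females average 5.46 and CD males 5.31 over the 76 members, and libraries of the 2 number ranges differ within groups, most clearly in complex II.

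On HFD the sexes did not differ by any DEG among 77 members tested: 0 were higher in females (2.01% of all genes), 0 lower (1.08%) and 0 had an adjusted p under 0.05 (0.0988%) with edgeR or DESeq2. The median was -0.07, where that of all genes was 0.0059, with 31 members positive. Complexes I to V had medians of -0.07, -0.03, -0.09, -0.07 and -0.08. At an unadjusted p under 0.05 stood 1 member, lower in females (2.29% of all genes), the complex I gene Ndufb9, which binds an acyl carrier protein. Its values were 70.4, 82.8 and 92.3 CPM in HFD females and 81.9, 97.0 and 104 CPM in HFD males. All 6 females lay below the male median and 3 below every male, and its log2 fold change was -0.21 (SE 0.0961, adjusted p = 0.872). With the number range as a term the median was -0.04 with 0 DEGs. Within the 19 libraries it was -0.05 with 1 DEG, Ndufa4l2, at 3.03, and within the 11 it was -0.04 with 0.

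In females no member was a DEG between HFD and CD. Of 76 tested, 0 were higher on HFD (2.95% of all genes), 0 lower (0.724%) and 0 passed the adjusted threshold (0.0199%) with edgeR, and DESeq2 gave 0 adjusted and 1 by the DEG threshold. The median was -0.07 (all genes 0.0012), 61 members were negative, and complexes I to V had medians of -0.06, -0.10, -0.08, -0.10 and -0.07. Ndufb11, an X-linked accessory subunit of complex I, was the single member with an unadjusted p under 0.05, and lower (1.53% of all genes). It had 15.6, 22.7 and 25.9 CPM in HFD females and 20.6, 27.7 and 34.5 CPM in CD females, with all HFD values under the CD median and 2 under every CD value. The log2 fold change was -0.35 (SE 0.137, adjusted p = 0.698).

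Ndufa4l2 did not pass the filter on low counts in this comparison, yet its highest level was here, from 0 to 7.76 CPM in HFD females (median 1.80) and 0.198 to 0.683 CPM in CD females. The squamous genes rose in HFD females as well, all 5 that could be tested by the DEG threshold, with a median of 4.98 on the log2 scale. With the squamous score as a covariate, or without the 6 libraries highest in these genes, the median of the members was 0.05 in both fits. The second of these fits keeps only HFD females 2 and 6 of the HFD females. Of the skeletal muscle genes 3 of 4 tested were DEGs, all higher (median 2.88), and of the fibroblast genes 3 of 7 (median 0.36). With the number range as a term the members had a median of -0.04 and 0 DEGs, within the 19 libraries -0.02 and 1 DEG, Ndufa4l2, at 2.52, and within the 11 -0.06 and 1 DEG, Uqcrq, at -0.82. What part these cells had in the members' levels was not tested.

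In males 59 of 76 members tested had a positive log2 fold change for HFD over CD. The median was 0.15 (all genes -0.0067), and complexes I to V had medians of 0.15, 0.08, 0.17, 0.19 and 0.19. By the DEG threshold 2 members were higher (1.25% of all genes) and 0 lower (1.64%), and at an unadjusted p under 0.05 alone 11 were higher (3.18%). None reached an adjusted p under 0.05 with edgeR (0% of all genes, 0 members) or DESeq2.

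The DEGs were Ndufb4 and Atp5s. Ndufb4 (ENSMUSG00000022820, chr16:37647170-37654453), an accessory subunit in the membrane arm of complex I, had 6.12, 10.2 and 15.3 CPM in HFD males and 5.52, 6.30 and 10.1 CPM in CD males. Among the HFD males 3 lay above every CD male and 1 below the CD median, and the log2 fold change was 0.55 (SE 0.211, adjusted p = 0.802). Its counts per exonic kilobase, taken over the 1916 exonic bases of all its transcripts, were 0.388 of what its TPM gives, relative to the median member. Reads split with near-identical copies or exons of little used transcripts can lower this ratio, and neither was tested. On the TPM scale the same gene stood at 27.0 ± 4.39 in HFD males and 22.1 ± 2.24 in CD males (n = 6 each). Atp5s ran 3.87, 5.67 and 9.31 CPM against 2.83, 3.81 and 5.80 CPM, with a log2 fold change of 0.51 (SE 0.233, adjusted p = 0.823). All HFD males lay above the CD male median but only 2 above every CD male, of which HFD male 2 was the highest.

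The remaining 9 of the 11 were Ndufa9 (0.33), Ndufv2 (0.30), Ndufa12 (0.26), Ndufb9 (0.23) and Ndufa10 (0.22) of complex I, Cox7a2 (0.36) of complex IV, and Atp5j2 (0.28), Atp5h (0.26) and Atp5f1 (0.24) of complex V. Ndufv2, which carries an iron-sulfur centre next to the NADH site, had 61.4, 69.6 and 102 CPM in HFD males and 52.6, 58.3 and 75.4 CPM in CD males. The complex II genes were at 0.04 to 0.09 on the log2 scale and the complex III core protein Uqcrc1 at -0.024 (SE 0.130).

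Ndufb4 and Atp5s stayed DEGs with the number range as a term (0.44 and 0.42) and within the 19 libraries, where Ndufc2 joined them, and the medians were 0.13 and 0.17. Within the 11 libraries the median was 0.03 and the DEGs were Atp5g3 (-0.42) and Atp5l (-0.73), both lower on HFD. Without HFD male 2 alone, 0 members passed. Marker lists moved in this comparison: all 12 smooth muscle genes were negative (median -0.29, 1 DEG), with summed levels of 8844 to 15991 CPM in HFD males and 9274 to 16466 CPM in CD males. The 4 squamous genes tested were positive (median 2.36, 3 DEGs), at 6.15 to 837 against 5.08 to 22.1 CPM over the list, and so were all 8 B cell genes (median 0.71, 0 DEGs), at 0.83 to 120.1 against 2.50 to 85.7 CPM. With the smooth muscle score as a covariate 0 members passed and the median was 0.08, and with the squamous score 0 passed and it was 0.14.

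**Figure D4:**
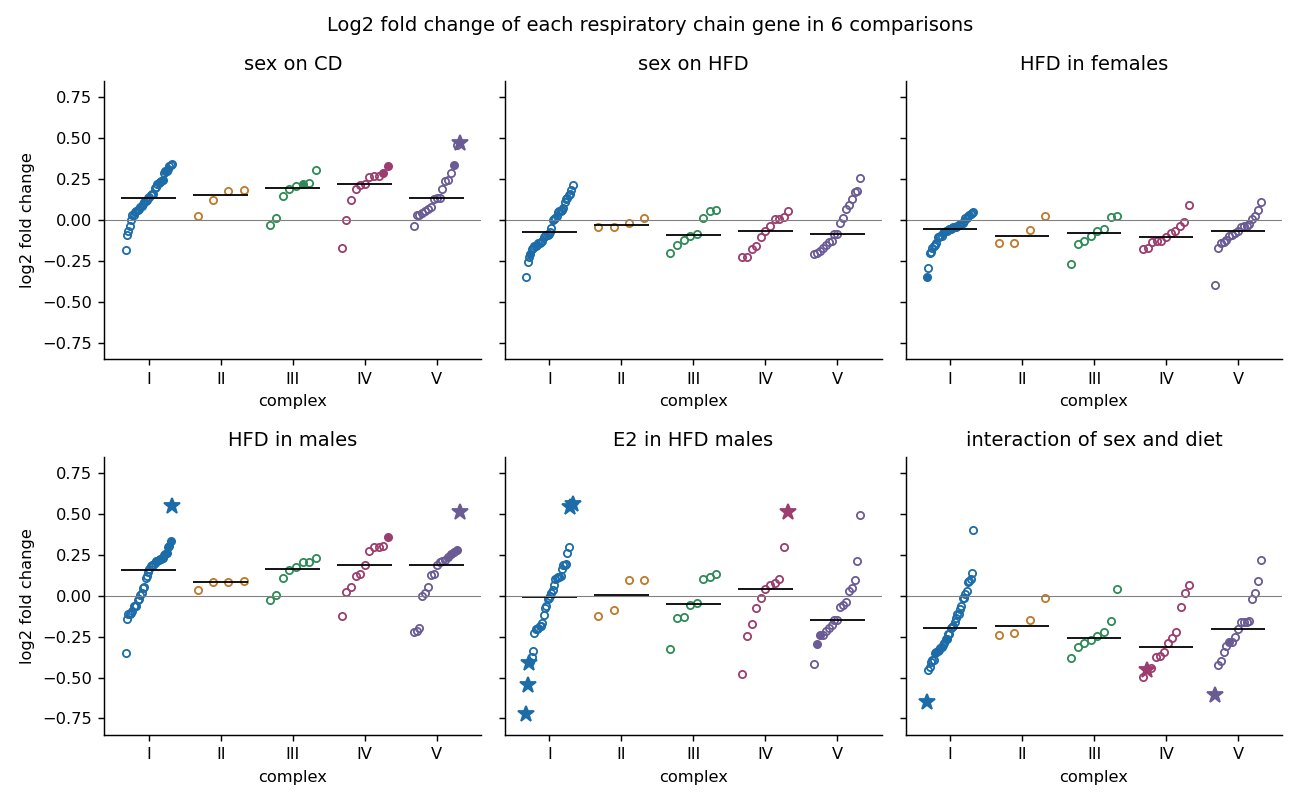
Log2 fold change of every tested member except Ndufa4l2 in the 6 comparisons, by complex. Bars are the median of each complex, Ndufa4l2 included where tested. Stars mark members past the DEG threshold, filled circles other members with an unadjusted p under 0.05, and open circles the rest. Ndufa4l2 was tested only for sex on HFD (1.64) and in the interaction (1.40), values beyond the axis, and was too low for the other fits. The medians of the members are 0.16 for sex on CD and 0.15 for HFD in males.

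The response to HFD was compared between the sexes by the interaction of sex and diet over 24 libraries, positive where HFD raised a gene more in females. It uses the same CD and HFD libraries as the comparisons above, so it is no separate evidence. Of 78 members tested, 64 were negative with a median of -0.23 (all genes 0.0074), and the medians of complexes I to V were -0.20, -0.19, -0.26, -0.31 and -0.20. By the DEG threshold 0 were positive (3.71% of all genes) and 3 negative (1.47%), at p under 0.05 alone 8 were negative (2.47%), and 0 had an adjusted p under 0.05 (0% of all genes) with edgeR or DESeq2. The 3 were Ndufb4 at -0.65 (SE 0.274, adjusted p = 0.679), Atp5s at -0.61 (SE 0.284, adjusted p = 0.727) and Cox5b at -0.45 (SE 0.184, adjusted p = 0.665). For Cox5b the HFD effect was -0.17 in females and 0.28 in males, neither with an unadjusted p under 0.05. The other 5 were Ndufa12, Ndufb2, Ndufb5, Ndufb9 and Atp5f1. With the number range as a term Ndufb4 (-0.49) and Cox5b (-0.46) remained DEGs and the median was -0.15, and within the 19 and the 11 libraries it was -0.18 and -0.14 with 3 and 0 DEGs. Without HFD male 2 there were 0, and without HFD female 2 there were 11. All 12 smooth muscle genes were positive in the interaction (median 0.54, 3 DEGs), and all 8 B cell genes negative (median -1.25, 0 DEGs). With the smooth muscle score as a covariate 0 members passed the DEG threshold.

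E2 in males on HFD gave DEGs among the members in both directions, at counts near the share of all genes. Of 76 tested, 3 were higher with E2 (2.63% of all genes) and 3 lower (3.24%) by the DEG threshold, 3 and 5 at p under 0.05 alone (4.83% and 5.4%), and 0 had an adjusted p under 0.05 (0.00666%) with edgeR or DESeq2. The median was -0.04 (all genes 0.0011) with 33 members positive, and complexes I to V had medians of -0.0088, 0.0045, -0.05, 0.04 and -0.15. The HFD males given vehicle are the same libraries as in the HFD comparison.

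Lower with E2 were Ndufb4, Ndufa4 and Ndufv2. Ndufb4 had 3.90, 6.33 and 9.40 CPM with E2 and 6.12, 10.2 and 15.3 CPM with vehicle, a log2 fold change of -0.72 (SE 0.221, adjusted p = 0.454). All 6 E2-treated males lay below the vehicle median and 3 below every vehicle male. Its level was 21.0 ± 3.06 TPM with E2 and 27.0 ± 4.39 TPM with vehicle (n = 6 each).

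Ndufa4 (ENSMUSG00000029632, chr6:11900373-11907446) had 21.2, 22.0 and 42.3 CPM with E2 and 22.7, 33.8 and 60.2 CPM with vehicle, a log2 fold change of -0.54 (SE 0.233, adjusted p = 0.476). Its highest E2 value was the library numbered 103 and thus of the 11. Ndufv2 (ENSMUSG00000024099, chr17:66078795-66101559) had 48.7, 55.5 and 73.5 CPM with E2 and 61.4, 69.6 and 102 CPM with vehicle, at -0.41 (SE 0.139, adjusted p = 0.455). For Ndufa4 and Ndufv2 alike, 4 E2-treated males lay below every vehicle male.

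Higher with E2 were Ndufs6, Ndufa8 and Cox7a2l. Ndufs6 (ENSMUSG00000021606, chr13:73319874-73328542), a zinc-binding accessory subunit of complex I, had 16.5, 25.7 and 34.6 CPM with E2 and 11.5, 18.2 and 20.5 CPM with vehicle, at 0.56 (SE 0.188, adjusted p = 0.455). Its exons overlap Mrpl36 on the opposite strand. Ndufa8 (ENSMUSG00000026895, chr2:36036326-36049406) had 23.1, 30.8 and 37.7 CPM with E2 and 13.1, 22.2 and 27.4 CPM with vehicle, at 0.54 (SE 0.172, adjusted p = 0.454). In both genes 4 E2-treated males lay above every vehicle male.

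Cox7a2l (ENSMUSG00000024248, chr17:83501919-83514333) had 102, 156 and 269 CPM with E2 and 84.6, 116 and 147 CPM with vehicle, at 0.51 (SE 0.202, adjusted p = 0.461). All but 1 of the E2-treated males exceeded every vehicle male, and the top value belonged to E2-treated male 2. On the TPM scale it was 176 ± 24.03 with E2 and 162 ± 11.6 with vehicle, a smaller difference than in CPM. The synthase genes Atp5f1 (-0.29) and Atp5j (-0.24) completed the members with an unadjusted p under 0.05.

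Of these 6 DEGs, Ndufs6, Ndufa8, Cox7a2l and Ndufa4 were among the 11 members whose ranges did not overlap between sample numbers, and the E2 group held 1 of the 11 libraries where the vehicle group held 3. With the number range as a term only Ndufb4 remained, at -0.50 (SE 0.185, adjusted p = 0.801), and the others were at 0.37 (Ndufs6), 0.37 (Ndufa8), 0.29 (Cox7a2l), -0.24 (Ndufa4) and -0.26 (Ndufv2). Within the 19 libraries the DEGs were Ndufs6 (0.45), Ndufb4 (-0.51), Cox5a (-0.40) and Ndufc2 (-0.53), and within the 11, which hold a single E2-treated male, there were 0. Leaving out that library, E2-treated male 1, gave 15 DEGs, 4 higher and 11 lower, and leaving out E2-treated male 2 gave 3. Marker lists moved here as well: the 4 squamous genes tested were negative (median -2.69, 3 DEGs), at 5.72 to 8.63 CPM over the list against 6.15 to 837 CPM with vehicle. The 5 skeletal muscle genes tested were also negative (median -2.67, 3 DEGs), at 17.9 to 54.7 against 12.5 to 567 CPM, and 7 of 8 macrophage genes were positive (median 0.33, 2 DEGs), at 140.2 to 206 against 116 to 184 CPM. With the smooth muscle or the squamous score as a covariate the members past the DEG threshold were Ndufs6, Ndufa8 and Ndufb4 in each fit.

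**Figure D5:**
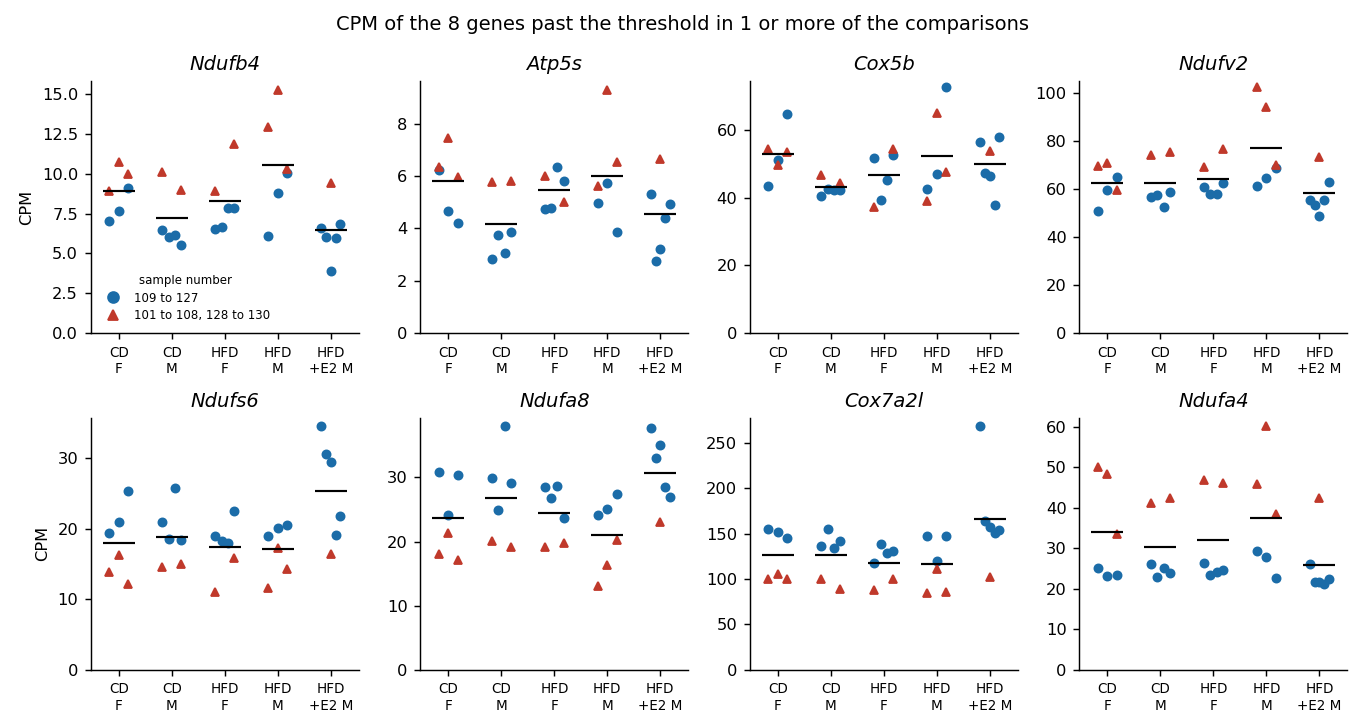
CPM of the 8 members past the DEG threshold in at least 1 comparison, a point per library and a bar at the group mean (n = 6); triangles are libraries numbered 101 to 108 and 128 to 130. By group mean Ndufb4 is highest in HFD males and lowest with E2, and in Ndufs6, Ndufa8, Cox7a2l and Ndufa4 the symbols of the 2 number ranges separate in every group.

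Few genes of the pathways around the members passed the DEG threshold. In the sex comparison on CD, 0 of 30 assembly factors of complexes II to V and 0 of 14 of complex I passed the DEG threshold, with medians of 0.16 and 0.09. The enzymes of the tricarboxylic acid cycle, which feed the chain with NADH and succinate, had 0 DEGs of 13 in each of the 6 comparisons, and medians from -0.07 to 0.08. Electron carriers and subunits outside the name rule, Ndufab1 and Etfdh among them, had 0 DEGs of 10 for sex on CD with a median of 0.10 and 1 of 10 with E2, 2010107E04Rik at -0.61.

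Regulators of mitochondrial biogenesis gave 0 DEGs of 17 for sex on CD, with Esrra at 0.33 (adjusted p = 0.319) and Esrrg at 0.36 (adjusted p = 0.320). In males on HFD Pprc1, a coactivator of the PGC-1 family, was the single DEG of this list and lower, at -0.53 (SE 0.200, adjusted p = 0.802). Mitochondrially encoded subunits, the partners of the members in complexes I, III, IV and V, had 8 of 13 genes tested and a median of -0.01 for sex on CD. In males on HFD mt-Nd3 was higher at 0.58 and mt-Nd6 lower at -0.50, and with E2 mt-Nd3 was at -1.15 (SE 0.398, adjusted p = 0.455). Cytosolic ribosomal proteins, short and abundant like many members, had medians of 0.07 for sex on CD and -0.07 for HFD in males, where the members had 0.16 and 0.15. For HFD in females they had -0.09 and the members -0.07, both negative. For sex on HFD, E2 and the interaction they had 0.07, 0.02 and -0.05, where the members had -0.07, -0.04 and -0.23.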

How the data were processed

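Total RNA from 30 colons was sequenced after ribosomal RNA depletion with a stranded library kit. Per the labels, the authors used bcl2fastq 2.19.1.403, Trim Galore, STAR, featureCounts and StringTie with genome build mm10 (GRCm38). The authors deposited a table of raw counts for 46078 genes, used as deposited, and TPM values per library from StringTie, used for levels only. The strand setting and the treatment of reads that map to several places are not given in the sources used here. The exons of 28 members overlap another gene, and reads of a gene and an antisense partner cannot be told apart without strand. Counts per exonic kilobase of Atp5l, Atp5g1 and Atp5g2 were 0.030, 0.194 and 0.285 of what their TPM gives, relative to the median member, and that of Ndufb4 0.388. The exonic length joins all transcripts of a gene, 6443 bases for Atp5l and 4912 for Atp5g1, so exons of little used transcripts lower the ratio. Whether reads were split with near-identical copies was not tested.

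The members, the pathway and marker lists and the tests were chosen with earlier results of these data known. Groups came from the sample titles, 6 libraries each. Each comparison was fitted on all genes of its own groups in edgeR 4.0.16 (R 4.3.3), with filterByExpr, TMM scaling and the robust quasi-likelihood F-test, and p-values were Benjamini-Hochberg adjusted over all genes tested. The threshold for a DEG, p under 0.05 and a log2 fold change beyond 0.4, follows the study. CPM are TMM scaled, and log2 CPM use a prior count of 2. The test script was tested on simulated data. Named genes were the members past a threshold (up to 3 in each direction), tissue isoforms and paralogs, core subunits (a few genes are not reported here), the highest and lowest of each complex, and members on the X chromosome. Members with an unadjusted p under 0.05 that the text lists beside them were named after their values were seen. Alternatives were DESeq2 1.42.0, its size factors, other filters on low counts, mitochondrial genes left out, all 30 libraries in the fit, a replicate block, scores of smooth muscle, squamous epithelium or colonocyte genes as a covariate, each library left out, and, chosen after seeing the data, fits by the range of the sample number and without the 6 libraries highest in squamous genes. Depth sets the precision, and Atp5s at a few CPM rests on the fewest reads among the DEGs of the comparisons without these alternatives. Ndufa4l2, named as a DEG in fits within a range of the sample number, rests on fewer. It had a mean of 0.91 CPM and 309 counts in total over the 30 libraries.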

Additional observations from a re-analysis of the deposited data

Results flagged for a closer look

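In 9 of 170 groups tested over 34 genes and scores, a single library stood apart from the other 5 by Dixon's test, and chance flags about 1 in 20 groups. Of these, 5 were E2-treated male 1, in which log2 CPM was the highest of its group for Atp5g3 (6.88), Cox5a (6.29), Ndufa4 (5.41), Sdhd (7.24) and Uqcrfs1 (6.53). That library is the only E2-treated male numbered outside 109 to 127, and all 5 genes are among the 6 members that were lower in every library of that range. The remaining 4 were Atp5a1 in HFD female 2 (9.79) and Ndufa1 in HFD male 2 (5.48), each the highest of its group, and Cox7a1 in HFD male 4 (2.47) and Cox8a in CD female 3 (5.99), each the lowest of its group.

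In the interaction test of sex and diet 3 of 78 members passed the DEG threshold, an unadjusted p under 0.05 and a log2 value beyond 0.4. All 3 were negative (1.47% of all genes), and 0 were positive (3.71%). They were Ndufb4 (-0.65), Atp5s (-0.61) and Cox5b (-0.45) on the log2 scale. Their adjusted p-values in edgeR's quasi-likelihood test were 0.679, 0.727 and 0.665. What part the smooth muscle genes had was not tested apart from the fit with their score as a covariate, in which 0 members passed this threshold.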

How the results depend on the processing

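Counts below are members past the DEG threshold, and medians are of the members' log2 fold changes. The share of all genes called in each fit is not given beside them, so a count does not set the members apart from other genes. With another tool, scaling, filter or set of libraries in the fit, counts moved only where 0 became 1: for sex on HFD with all 30 libraries, and for HFD in females with DESeq2, without a filter or with all 30 libraries. With no fold change minimum the counts were 9 (sex on CD), 1 (sex on HFD), 1 (HFD in females), 11 (HFD in males) and 8 (interaction). Replicate numbers were not taken as pairs, since same-numbered libraries did not all deviate together. For sex on CD their correlations ran from -0.109 (replicate 2) to 0.468 (replicate 1). Replicate 1 of every group had a sample number outside 109 to 127, so the block overlaps with the number range. With the replicate block the counts were 2 for sex on CD (1 adjusted) and 7 for the interaction. With the smooth muscle score as a covariate, which itself differed between the sexes on CD, the counts were 25 for sex on CD (7 adjusted, median -0.085), 1 for sex on HFD, 0 for HFD in males, 3 for E2 and 0 for the interaction (median -0.082), and the sex difference on CD turned for Ndufb11 (-0.17), Cox8a (-0.0029), Atp5j2 (-0.072), Atp5s (-0.022) and Uqcrh (-0.053). With the squamous score they were 1 for HFD in females (median 0.050), 0 for HFD in males and 3 for E2, and with the colonocyte score 11 for sex on CD, 8 for HFD in males and 6 for the interaction. Without the 6 libraries highest in squamous genes they were 1 for sex on HFD (median 0.040), 1 for HFD in males, 3 for E2 and 0 for the interaction (median -0.096), and HFD in females had a median of 0.051. Of the HFD females these fits keep only 2 and 6, and of the HFD males given vehicle 1, 3, 5 and 6. With the sample number range as a term E2 gave 1 (median 0.0044). Within numbers 109 to 127 the counts were 4 for sex on CD (1 adjusted), 1 for sex on HFD and 1 for HFD in females, and within the others 0 for sex on CD, 1 for HFD in females, 0 for E2 (median 0.082, with a single E2-treated male, taken to vary like the vehicle males) and 0 for the interaction. The cause of these shifts was not tested.

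With each library left out in turn, counts ran from 0 to 5 for sex on CD (5 without CD male 1, 4 without CD male 6, 2 without CD female 3, 0 without CD female 1 or 2 or CD male 2, 3, 4 or 5), from 0 to 3 for sex on HFD (3 without HFD female 2, 1 without HFD male 2 or 3) and from 0 to 1 for HFD in females (1 without CD female 3 or HFD female 2). They ran from 0 to 5 for HFD in males (5 without CD male 1, 4 without CD male 6 or HFD male 4, 1 without CD male 2, 3, 4 or 5 or HFD male 6, 0 without HFD male 2), from 3 to 15 for E2 (15 without E2-treated male 1, 3 without E2-treated male 2) and from 0 to 11 for the interaction (11 without HFD female 2, 5 without CD female 4 or 5, CD male 1 or 6 or HFD male 4, 0 without HFD male 2). Adjusted calls ran from 0 to 1 for sex on CD (1 without CD female 3) and stayed at 0 in the others. Medians ran from 0.109 to 0.198 for sex on CD, -0.116 to -0.012 for sex on HFD, -0.118 to -0.023 for HFD in females, 0.112 to 0.199 for HFD in males, -0.086 to 0.014 for E2 (0.014 without HFD male 5, 0.0081 without E2-treated male 5) and -0.276 to -0.157 for the interaction.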
